A study of Mus musculus with 12 samples.

Results

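The genes described here are 17 apoptosis and survival regulators, found among the 3439 rows of 2 deposited gene tables by a pattern on the gene symbol that covers the BCL2 family, the caspases, the inhibitor of apoptosis (IAP) proteins, *Apaf1*, *Diablo*, *Fadd*, *Cflar*, the RIP kinases, *Pdcd4* to *Pdcd9* and the genes whose symbol begins with *Trp53*. All 17 are rows of the table of genes lower in tdTomato+ group 2 innate lymphoid cells (ILC2s), which has 2906 rows, and 0 are rows of the table of higher genes, which has 533. Which table holds a gene is the outcome of the study's own comparison. It is part of how the members were found and was not tested again here. By their textbook roles, 6 members are pro-survival (*Bcl2*, *Mcl1*, *Birc2*, *Birc3*, *Birc6* and *Xiap*), 5 are pro-death (*Casp8*, *Apaf1*, *Bcl2l11*, *Trp53* and *Pdcd5*), and 6 have another role, both roles or a role that is not settled (*Pdcd4*, *Pdcd6ip*, *Casp8ap2*, *Trp53bp1*, *Trp53inp1* and *Trp53i11*).

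Apoptosis runs through 2 routes that meet at the executioner caspases. In the mitochondrial route, BH3-only proteins such as BIM (*Bcl2l11*) neutralise BCL2 and MCL1, the outer membrane is opened by BAX and BAK, and released cytochrome c assembles APAF1 into the platform that activates caspase 9. In the death receptor route, FAS or TNF receptors recruit FADD and caspase 8, and c-FLIP (*Cflar*) and the IAP proteins hold this route in check. Lymphocytes such as ILC2s depend on cytokines of the common gamma chain family, among them IL-7 and IL-2, which keep BCL2 and MCL1 present.

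The RNA came from lung ILC2s of male mice with the genotype TIGIT-Cre-ERT2:Rosa26-LSL-tdTomato, in which tamoxifen activates a Cre enzyme made from the *Tigit* locus, and the cell and its progeny then keep the red protein tdTomato. Both populations came from mice that had received papain, a protease given through the nose as an allergen, and tamoxifen over 19 d. The labels give 4 RNA libraries of tdTomato-negative ILC2s and 4 of tdTomato-positive ILC2s, each made from about 100 sorted cells according to the methods. A tdTomato-negative cell is one without a lasting mark, which can also take in TIGIT-expressing cells that escaped recombination. How many animals stand behind a library, and their age, are not given in the sources used here.

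Neither table holds a value of a single library. The measurement used below is the authors' average log2 CPM (read counts scaled to a common library total of 1000000, on a log2 scale), 1 value for each gene over the libraries of both populations together. Whether all 8 libraries entered it is not stated. It tells how abundant a transcript was over the pooled libraries, and it carries no replicate error, no n and no level of either population. The populations need not weigh in it as they do in the lung, where tdTomato+ ILC2s were rare according to the paper. The tables' fold changes and test values belong to the study's comparison and are neither used nor printed. The depth of each library is unknown. Values of members are therefore described in order of size without a test, and neighbours in that order cannot be told apart, because their spread over libraries is not known.

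Markers of the cell type named in the labels were looked up. All 12 ILC2 markers looked up were rows of the lower table. Their average levels ran from 6.47 log2 CPM (*Klrg1*) to 9.98 log2 CPM (*Il1rl1*, the IL-33 receptor). *Gata3*, the factor that specifies ILC2s, averaged 8.79 log2 CPM. The share of all annotated protein-coding genes was 13.2%, which includes genes that ILC2s do not express. Being a row is an outcome of the study's comparison, and the paper reports reduced ILC2 signature genes in tdTomato+ ILC2s. The list was also chosen with earlier results of these data known. The pooled levels show that these transcripts were present, but they cannot check the cell type of either population. The proteins of 4 of the 12, *Ptprc* (CD45), *Il7r* (CD127), *Il2ra* (CD25) and *Il1rl1* (ST2), define the gate for ILC2s, so their presence was fixed by the sort. Of 22 markers of T cells, B cells, NK cells, macrophages, neutrophils, epithelium and erythroid cells, 21 were rows of neither table. The exception was *Cd3g*, a CD3 chain of T cells, in the lower table at 6.12 log2 CPM (69.5 CPM), whereas *Cd3e* and *Cd3d* were not rows. A gene that is no row may have missed the level limit or the comparison's threshold, so its own level is not known. The gate for ILC2s was also lineage-negative, which is meant to remove T cells. Whether RNA of T cells has a part in the values of the members was not tested.

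The 17 members averaged from 5.12 to 8.94 log2 CPM, with a median of 6.52, against a median of 6.39 over the 2906 rows of the lower table and of 6.23 over the rows of both tables. Of the 17, 10 lay above the median of the lower table. The lowest value in the tables is 5.00 log2 CPM, so no row shows how members below that level behaved. *Pdcd5*, at 5.12 log2 CPM, was the member nearest to this limit. Together the members averaged 2139 CPM, of which *Birc6* alone made up 22.9% and *Pdcd4* 12.3%. Levels of different genes are compared per length below, as CPM per kb of exon, because a longer transcript yields more fragments. On that scale the members ran from 7.35 CPM per kb (*Trp53bp1*) to 83.8 CPM per kb (*Pdcd4*), with a median of 14.0, against 15.4 over the 2905 lower rows with an annotated length.

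**Figure D1:**
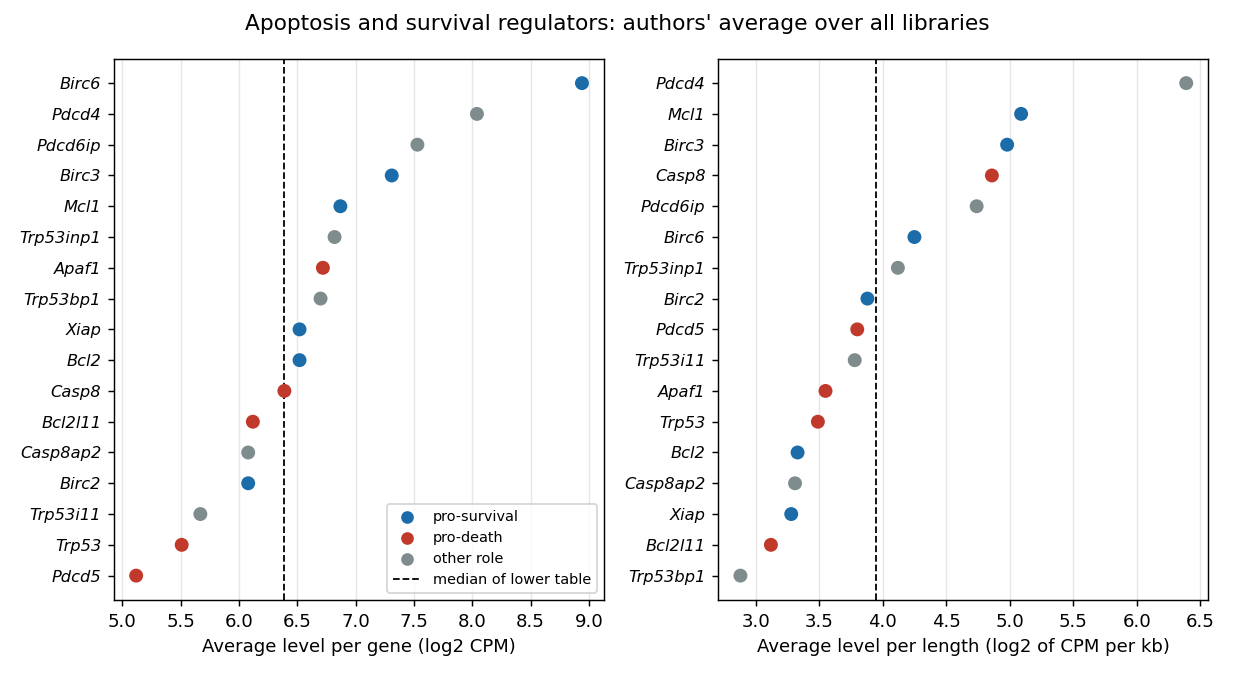
Each point is 1 member's average level over the libraries that the authors pooled, per gene in log2 CPM (left) and per exonic length in log2 of CPM per kb (right), coloured by role, with the dashed line at the median of the lower table (6.39 and 3.95). *Birc6* leads on the left at 8.94 but ranks 6 of 17 on the right, where *Pdcd4* leads at 6.39; no error bars can be drawn, since the tables hold 1 pooled value per gene.

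Among the pro-survival genes, the BCL2 family was represented by *Bcl2* and *Mcl1*, both of which bind and restrain pro-death relatives at the mitochondrial membrane. *Mcl1*, whose protein is short-lived and must be renewed constantly, averaged 6.87 log2 CPM (117 CPM), and *Bcl2* averaged 6.52 log2 CPM (91.9 CPM). Per exonic length the gap was wider, with 34.1 CPM per kb for *Mcl1* and 10.0 CPM per kb for *Bcl2*, a ratio of 3.40. The ratio was 2.67 when the longest transcript was taken as the length. In GRCm38, *Mcl1* is a compact gene on the plus strand of chromosome 3, chr3:95658788-95663176, whose longest transcript has 3 exons. *Bcl2* lies on the minus strand at chr1:106538178-106714274 and spans 176097 bases, although its longest transcript has 2 exons. *Bcl2* shares 558 exonic bases (6.09% of its exons) with *D630008O14Rik*, an antisense gene, and the use of strand in counting is not stated, so reads there may be assigned to either gene.

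The mammalian IAP proteins carry baculoviral IAP repeats and block caspases or their activation. *Birc6* (BRUCE or Apollon), a giant ubiquitin-conjugating enzyme that targets pro-death proteins, was the highest member with 8.94 log2 CPM (491 CPM), above 97.3% of all rows. Its exons cover 25772 bases and its longest transcript has 73 exons, and per length its level was 4.25 (log2 of CPM per kb), 0.603 times that of *Birc3* and above 68.0% of the rows with a length. *Birc3* (cIAP2) and *Birc2* (cIAP1), ubiquitin ligases that control RIPK1 and NF-kB signalling downstream of TNF receptors, averaged 7.31 log2 CPM (158 CPM) and 6.08 log2 CPM (67.5 CPM). Per length, *Birc3* had 31.6 CPM per kb and *Birc2* 14.7 CPM per kb, a ratio of 2.14, and of 2.68 with the longest transcript as the length. Both lie on the minus strand of chromosome 9, *Birc2* at chr9:7818227-7837064 and *Birc3* at chr9:7848699-7873186, with 11634 bases and 0 annotated genes between them. They are related genes, so reads of shared stretches can be divided between them in counting. *Xiap*, on the plus strand at chrX:42059679-42109656, encodes the IAP that inhibits active caspases directly. It averaged 6.52 log2 CPM (92.1 CPM), which was 9.72 CPM per kb, and *Birc3* was 3.25 times as high per length. Over the 4 IAP genes the median was 16.9 CPM per kb.

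The pro-death genes comprised 3 core components of the 2 routes, *Casp8*, *Apaf1* and *Bcl2l11*, and 2 genes around p53. *Casp8*, the initiator caspase that is activated at death receptors, averaged 6.39 log2 CPM (84.0 CPM) from chr1:58795374-58847503 on the plus strand. Its short exons (2893 bases) gave it 29.1 CPM per kb, the fourth highest value of the 17 per length, close to that of *Birc3*. *Apaf1*, the scaffold of the apoptosome, lies on the minus strand at chr10:90989311-91082770 and averaged 6.72 log2 CPM (106 CPM). Per gene it stood above *Casp8*, but per length *Casp8* was 2.48 times as high. *Bcl2l11*, which encodes BIM, the BH3-only protein that is induced when lymphocytes lose cytokine support, averaged 6.12 log2 CPM (69.8 CPM) from chr2:128126038-128162547 on the plus strand. At 8.69 CPM per kb it was next to the lowest member, and *Mcl1* was 3.93 times as high per length. Between *Bcl2* and *Bcl2l11* the ratio was 1.15 per exonic length and 0.922 with the longest transcript, so their order depended on the length used.

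*Trp53*, the gene of the tumour suppressor p53 that induces *Bbc3*, *Pmaip1* and *Bax* after DNA damage, averaged 5.51 log2 CPM (45.5 CPM) from chr11:69580359-69591873 on the plus strand. It was the second lowest member per gene and had 11.2 CPM per kb. *Pdcd5*, at chr7:35641982-35647521 on the minus strand, encodes a small protein that moves to the nucleus during apoptosis and stabilises p53. It averaged 5.12 log2 CPM (34.7 CPM), above 3.87% of all rows. Its value per length was 14.0 CPM per kb over its exons and 41.7 CPM per kb over its longest transcript, which has 832 bases, the widest effect of the length among the members. Processed pseudogenes of *Trp53* and *Pdcd5* are annotated (*Trp53-ps* and *Pdcd5-ps*), and how reads shared with them were counted is not stated.

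The pro-survival and pro-death genes were set side by side as groups. The pro-survival genes had a median of 6.70 log2 CPM (range 6.08 to 8.94), and 5 of the 6 lay above the median of the lower table. The pro-death genes had a median of 6.12 log2 CPM (range 5.12 to 6.72), and 1 of the 5 lay above it. The difference between these medians was 0.57 on the log2 scale per gene and 0.52 per exonic length. It was 0.30 when only members of at least 6 log2 CPM were kept, which left 6 pro-survival and 3 pro-death genes. The ranges of the groups overlapped on both scales, from 9.72 to 34.1 CPM per kb for the pro-survival and from 8.69 to 29.1 CPM per kb for the pro-death genes. Summed, the pro-survival genes averaged 1017 CPM, of which *Birc6* alone made up 491 CPM, the pro-death genes 340 CPM and the other members 782 CPM. These sums are not per length and cover unequal numbers of genes. Without *Birc6*, the difference of the medians was 0.40. No test was made, because the members were chosen and sorted with knowledge of the field and each gene has 1 pooled value.

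**Figure D2:**
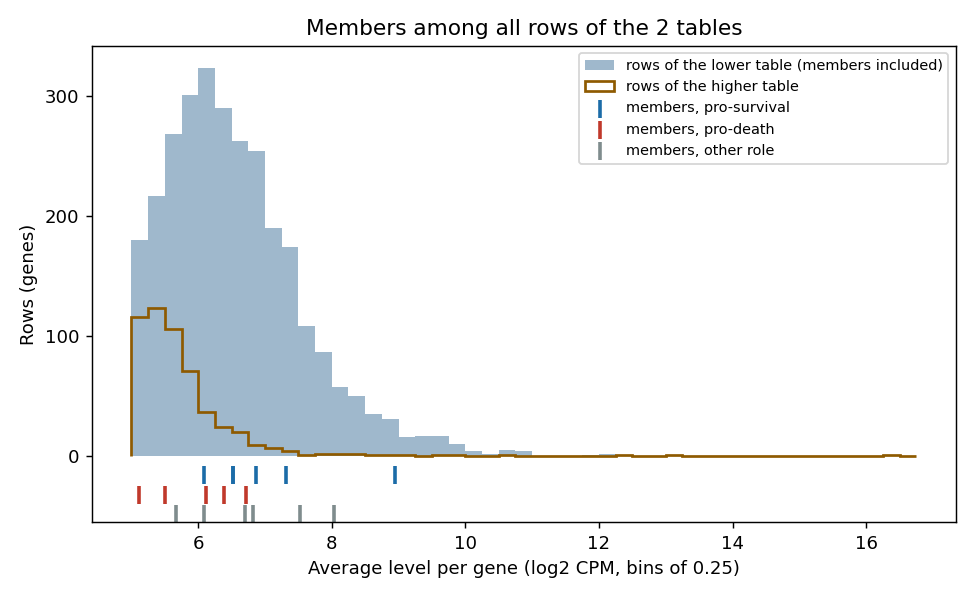
Histogram of the average level per gene (log2 CPM) over the 2906 rows of the lower table (filled, members included) and the 533 rows of the higher table (outline), with a tick below the axis for each member, 1 line for each role. The members spread from 5.12, near the lower end of the table, to 8.94, in its upper tail, and the 5 pro-death genes lie at or below 6.72.

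Members with other roles included 2 of the 3 highest of all per gene, *Pdcd4* and *Pdcd6ip*. Per length, *Pdcd4* ranked 1 and *Pdcd6ip* ranked 5. *Pdcd4* encodes an inhibitor of the translation initiation helicase eIF4A and is degraded when growth factor signalling is active. It averaged 8.04 log2 CPM (263 CPM) from chr19:53892231-53929860 on the plus strand, and with 83.8 CPM per kb it was the highest member per length, 2.46 times as high as *Mcl1*. *Pdcd6ip* encodes ALIX, an adaptor of the ESCRT machinery in vesicle budding and membrane repair, and averaged 7.53 log2 CPM (184 CPM) from chr9:113651744-113708259 on the minus strand, or 26.7 CPM per kb. *Casp8ap2* (FLASH), which binds caspase 8 and is needed for histone transcript processing, averaged 6.08 log2 CPM (67.5 CPM) from chr4:32615451-32653265 on the plus strand. Per length, *Casp8* was 2.94 times as high as *Casp8ap2*.

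The 3 further genes with a *Trp53* symbol are a DNA damage protein and a pair of p53 targets. *Trp53bp1* encodes 53BP1, which directs the repair of double-strand breaks, and averaged 6.70 log2 CPM from chr2:121193281-121271407 on the minus strand. Per length it was the lowest member at 7.35 CPM per kb, and 2130 of its exonic bases (15.0%) are shared with *Tubgcp4* on the other strand. *Trp53inp1*, a p53-induced gene linked to autophagy and cell death, averaged 6.82 log2 CPM (113 CPM) from chr4:11156431-11174379 on the plus strand, or 17.4 CPM per kb. It was 1.55 times as high per length as *Trp53* itself. *Trp53i11* averaged 5.67 log2 CPM (50.8 CPM) from chr2:93187548-93201759 on the plus strand, or 13.8 CPM per kb. Among the 4 genes with a *Trp53* symbol, the median was 12.5 CPM per kb.

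**Figure D3:**
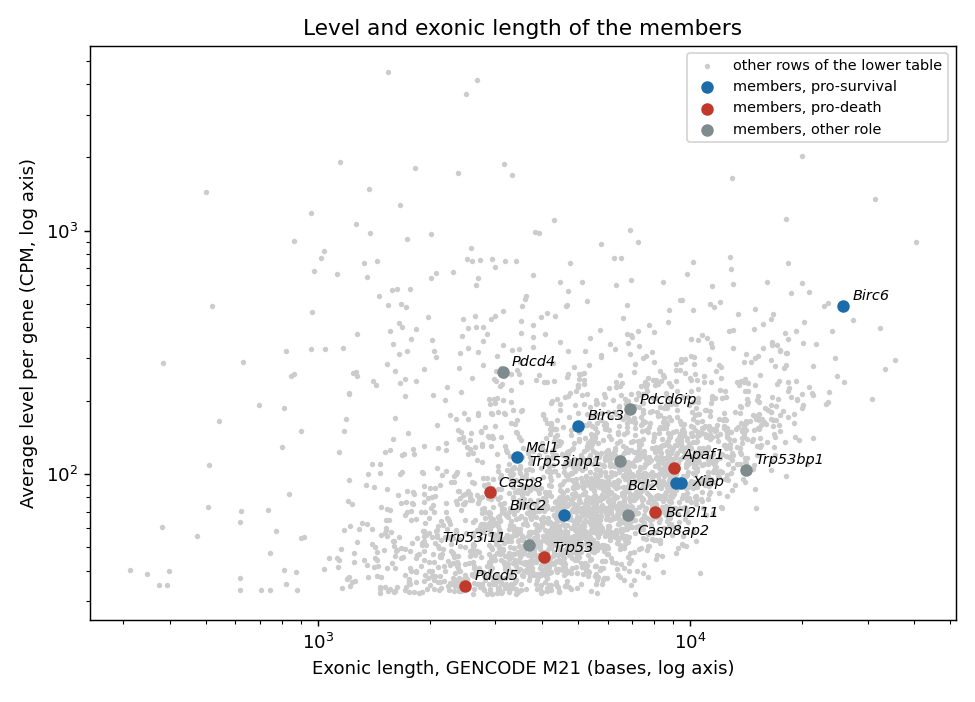
Average level per gene (CPM) against exonic length (bases), both on log axes, for each member, coloured by role, and for the other rows of the lower table (grey). *Birc6* combines the longest exons of the members (25772 bases) with the highest level (491 CPM), and *Pdcd4*, *Mcl1* and *Casp8* stand high for genes with at most 3418 bases of exon.

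The pattern matches 59 protein-coding genes of the GENCODE M21 annotation, so 42 were rows of neither table and their level and direction are not known here. Of the 59, 28.8% were rows of the lower table, against 13.2% of all 21951 annotated protein-coding genes. The second share includes genes that ILC2s do not express, and a row had to pass a level limit as well as the study's threshold, so the gap between the shares is not a result about cell death genes. By role, 6 of 16 pro-survival genes (37.5%), 5 of 23 pro-death genes (21.7%) and 6 of 20 other genes (30.0%) were rows. The counts by family have the same limit and are not a result about the families. The IAP family had 4 of 6 (not *Birc5* and *Birc7*) and the PDCD genes 3 of 5. The *Trp53* genes had 4 of 10 and the adaptors and activators 2 of 5. The BCL2 family had 3 of 19 (15.8%) and the caspases 1 of 10 (10.0%), near the share of all protein-coding genes, and the RIP kinases 0 of 4. Pro-survival BCL2 relatives that were no rows are *Bcl2l1*, *Bcl2l2*, *Bcl2l10* and the A1 genes *Bcl2a1a*, *Bcl2a1b*, *Bcl2a1c* and *Bcl2a1d*. The A1 genes are near-identical copies between which reads can be divided. The membrane-opening pair *Bax* and *Bak1*, the BH3-only genes *Bad*, *Bid* and *Bbc3*, the executioner *Casp6*, the initiators *Casp2* and *Casp9*, the inflammatory *Casp1*, *Casp4* and *Casp12*, and *Fadd*, *Cflar*, *Diablo*, *Ripk1* and *Ripk3* were also no rows.

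**Figure D4:**
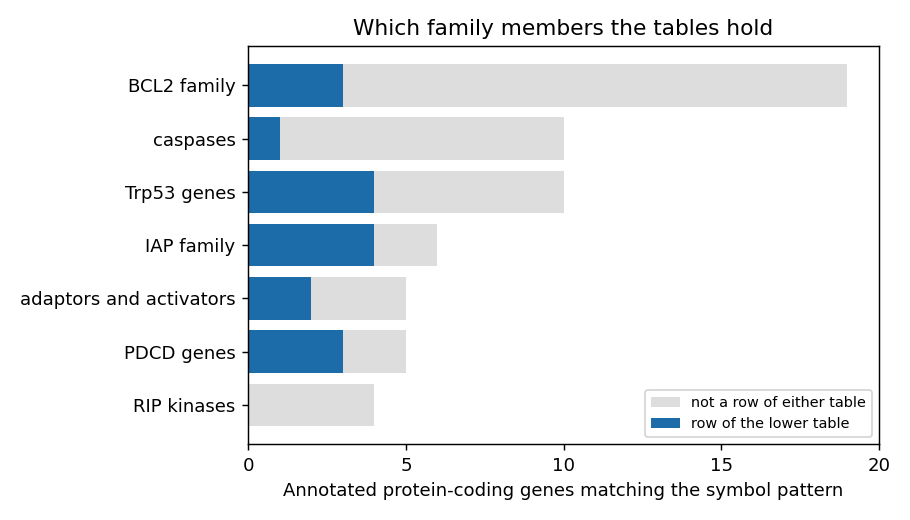
For each family of the pattern, the number of annotated protein-coding genes (whole bar) and how many of them are rows of the lower table (blue). The IAP family has 4 of 6 genes as rows, the BCL2 family 3 of 19 and the caspases 1 of 10; a gene in grey may have missed the level limit or the study's threshold.

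The wider pathway was read from lists of 71 genes that hold none of the members. Of these, 33 were rows of the lower table, 0 of the higher table and 38 of neither. The 33 had a median of 6.38 log2 CPM, close to the median of the lower table. Of all annotated protein-coding genes, 13.2% were rows of the lower table, a share that includes genes that ILC2s do not express. The lists were chosen with earlier results of these data known, so the counts below are not a result about the pathway. Survival signalling and inhibitors of death had 13 of 19 genes as rows. They included the cytokine receptor chains *Il7r* (8.96 log2 CPM), *Il2ra* (8.61 log2 CPM) and *Il2rg* (7.13 log2 CPM), the NF-kB subunits *Nfkb1* (8.99 log2 CPM) and *Rela* (5.75 log2 CPM), the kinases *Akt1* and *Pim1*, and *Stat5b*. *Il7r* had 107 CPM per kb, above every member. Its protein and that of *Il2ra* belong to the gate for ILC2s. In the list of death receptors and adaptors 5 of 13 were rows, from 5.22 to 6.72 log2 CPM. They were *Tnfrsf1b*, the ligand gene *Tnfsf10* (TRAIL), *Traf1*, *Traf2* and *Dedd2*, none of which is itself a death receptor gene. The death receptor genes *Fas* and *Tnfrsf1a* were not rows, nor were *Fasl* and *Tradd*.

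Of the list of mitochondrial and BH3-related genes outside the pattern, 7 of 15 were rows. *Pmaip1*, which encodes the BH3-only protein NOXA that antagonises MCL1, was the lowest at 5.10 log2 CPM, and *Cycs*, the gene of cytochrome c, had 5.19 log2 CPM. The highest row of this list was *Bclaf1* at 7.62 log2 CPM, although its protein is a nuclear factor of transcription and RNA processing and neither mitochondrial nor BH3-only. *Bnip3l*, a BH3-like protein of mitochondrial clearance, had 6.18 log2 CPM, and the channel genes *Vdac1*, *Vdac2* and *Vdac3* averaged 48.4, 67.1 and 58.8 CPM. Of the regulators and targets of p53, 2 of 9 were rows, both of them p53 inhibitors, with *Mdm4* at 7.45 log2 CPM and *Mdm2* at 5.64 log2 CPM, while the target *Cdkn1a* was no row. Per length, *Mdm4* had 11.8 CPM per kb and *Mdm2* 9.82 CPM per kb, near the 11.2 CPM per kb of *Trp53*. The caspase substrates had 4 of 8 rows, *Rock1*, *Acin1*, *Lmnb1* and *Parp1*, from 8.30 down to 6.33 log2 CPM. Necroptosis and pyroptosis had 2 of 7 rows, the deubiquitinase gene *Cyld* at 7.20 log2 CPM and the pore-forming *Gsdmd* at 5.36 log2 CPM, and *Mlkl*, the executor of necroptosis, was no row.

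Promoter windows from RefSeq (GRCm38.p6, 250 bases before to 50 after a start site) were found for 16 of the 17 members. For each, the window nearest to the start of the GENCODE gene was taken. These windows had a median GC content of 62.8% (range 42.0% to 76.0%) and a median of 25 CpG dinucleotides. The medians were 61.7% and 22 over the 3558 windows of genes in both tables, and 52.7% and 7 over all 32851 windows. Unlike the members, these 2 sets were not reduced to 1 window per gene, and the 3558 windows belong to 2731 genes. The windows of *Bcl2* (76.0%) and *Apaf1* (74.7%) were the richest in GC and those of *Birc3* (43.0%) and *Casp8* (42.0%) the poorest. The windows of *Casp8* and *Xiap* lie 7128 and 8157 bases from the GENCODE start, so they stand for another start of these genes. Both strands were searched for the GC box GGGCGG, the ETS core CCGGAA, the GATA motif AGATAA, the TATA box TATAAA and a kappaB motif (GGGA, any base, then TTTCC), none of which contains another. A GC box was in 9 of the 16 windows (56.2%), against 62.8% of the windows of genes in both tables and 35.7% of all windows. The ETS core was in 5 of 16 (31.2%), against 24.4% and 14.9%. The GATA motif was in 2 of 16 (*Casp8* and *Casp8ap2*), the kappaB motif and the TATA box each in 1 of 16 (both in *Trp53*). These motifs stood in 6.58%, 0.506% and 8.32% of the windows of genes in both tables. A match describes letters only, not a bound site.

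The 3 BCL2 family windows are printed because they set the pro-survival *Mcl1* and *Bcl2* beside the pro-death *Bcl2l11*, and that of *Birc3* as an example of a member with a window of low GC content. They are written 5′ to 3′ along the gene's strand, with matches to any of the 5 motifs in capitals. *Mcl1* is chr3:95658471-95658770 on the plus strand, *Bcl2* is chr1:106714241-106714540 on the minus strand, *Bcl2l11* is chr2:128125788-128126087 on the plus strand, and *Birc3* is chr9:7873121-7873420 on the minus strand.
Mcl1: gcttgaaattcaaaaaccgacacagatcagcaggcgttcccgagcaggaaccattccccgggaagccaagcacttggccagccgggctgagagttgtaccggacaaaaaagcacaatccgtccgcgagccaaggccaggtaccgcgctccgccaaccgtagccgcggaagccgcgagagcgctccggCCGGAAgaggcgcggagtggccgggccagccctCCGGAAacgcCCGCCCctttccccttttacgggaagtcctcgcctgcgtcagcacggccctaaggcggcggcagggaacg
Bcl2: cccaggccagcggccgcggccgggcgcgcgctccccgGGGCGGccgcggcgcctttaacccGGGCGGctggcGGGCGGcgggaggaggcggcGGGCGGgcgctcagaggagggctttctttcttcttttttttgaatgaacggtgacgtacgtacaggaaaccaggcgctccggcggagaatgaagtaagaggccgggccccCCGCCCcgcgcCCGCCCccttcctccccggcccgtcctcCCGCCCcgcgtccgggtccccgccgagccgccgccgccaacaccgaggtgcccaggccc
Bcl2l11: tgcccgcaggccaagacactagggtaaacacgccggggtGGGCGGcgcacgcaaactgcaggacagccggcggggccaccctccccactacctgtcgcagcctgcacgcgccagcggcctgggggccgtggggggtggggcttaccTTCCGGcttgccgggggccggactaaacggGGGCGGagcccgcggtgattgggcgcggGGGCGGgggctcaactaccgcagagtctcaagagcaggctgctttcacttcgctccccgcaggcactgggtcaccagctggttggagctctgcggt
Birc3: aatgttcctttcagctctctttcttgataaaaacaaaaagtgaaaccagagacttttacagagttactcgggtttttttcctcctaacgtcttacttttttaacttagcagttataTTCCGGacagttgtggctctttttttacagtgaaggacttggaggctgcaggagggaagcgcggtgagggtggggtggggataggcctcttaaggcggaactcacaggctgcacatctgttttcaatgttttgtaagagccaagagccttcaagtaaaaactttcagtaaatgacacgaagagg

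In these windows, *Bcl2* holds 7 GC boxes on either strand, *Bcl2l11* holds 3 and *Mcl1* 1, while *Birc3* holds 0. The ETS core occurs in *Mcl1* (2 matches), *Bcl2l11* (1 match) and *Birc3* (1 match) and not in *Bcl2*. CpG dinucleotides number 44 in *Bcl2*, 33 in *Mcl1*, 27 in *Bcl2l11* and 7 in *Birc3*. The window of *Bcl2l11* thus held both motifs, as did that of *Mcl1*.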

How the data were processed

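RNA of tdTomato-negative and tdTomato-positive lung ILC2s was sequenced from 4 libraries each. The ATAC-seq libraries were not analysed here. According to the methods, reads passed through FASTP, STAR (GRCm39) and featureCounts (Ensembl release 104), and the authors tested tdTomato+ against tdTomato- libraries in edgeR; the labels name mm10, and tool versions are not given in the sources used here. The deposited tables hold the authors' average log2 CPM for each gene over pooled libraries, beside their log2 fold changes, likelihood ratios, p-values and false discovery rates, which were not used. As log2 the levels sum to 525008 CPM, below 1000000, whereas as natural logs they would sum to 20279725. The tables list genes that passed the study's threshold, with an average log2 CPM of at least 5.00. Columns with values of 1 sample that were left unused number 0.

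The planned comparison of the populations by limma or edgeR was not run, since no value of a single library is held. CPM was divided by exonic length (union of exons, GENCODE M21, GRCm38, matched by Ensembl identifier for 3436 of 3439 rows), with Python 3.11.15, numpy 2.4.6 and pandas 2.3.3. Promoter windows came from RefSeq on GRCm38.p6. Helper functions were tested on simulated data. All members were named. Some genes of the lists are not reported here. Members, roles and lists were chosen with earlier results of these data known.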

Additional observations from a re-analysis of the deposited data

How the results depend on the processing

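No paired analysis was possible because the tables hold no value of a single library. For the same reason no alternative was run on the replicate block, the pseudocount or left-out libraries. The filter on low values was varied only for the pooled average, with a limit of 6 log2 CPM. The alternatives of the longest transcript, of other roles and without *Birc6* were chosen after seeing the data. The median of the pro-survival members, 6.70 log2 CPM, was 4.07 (log2 of CPM per kb) per exonic length, 4.65 per length of the longest transcript and 6.52 without *Birc6*. The median of the pro-death members, 6.12 log2 CPM, was 3.55 per exonic length, 4.01 per length of the longest transcript, 6.39 with only genes of at least 6 log2 CPM, 6.26 with only the BCL2, IAP and caspase families, and 6.26 with *Pdcd4*, *Casp8ap2* and *Trp53inp1* counted as pro-death. The difference of the medians, 0.57, was 0.52, 0.64, 0.30, 0.44 and 0.44 in these same 5 settings and 0.40 without *Birc6*. The pro-survival median was the higher in each, but the settings reuse the same few genes and are not independent. The limit of at least 6 log2 CPM left 3 pro-death genes, and the BCL2, IAP and caspase families left 2. Leaving out inflammatory caspases and necroptosis genes changed nothing, as 0 of those 4 genes are members. Of the 5 highest members per gene, 4 were among the 5 highest per exonic length and 3 with the longest transcript. Library depth is unknown, so no interval can be given.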
